A study of Rattus norvegicus with 12 samples.

Results

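The genes described here are 5 rat genes and a copy of each, as named in the gene lists, taken as pairs: Rpl30 with LOC100362027, Rpl14 with LOC306079, Hmgb2 with Hmgb2l1, Ndufa10 with Ndufa10l1, and Diablo with LOC100360940. They are 10 of the 16770 genes in the count table and were matched by symbol. They were selected on measured values, the differences of their counts between the strains, so strain differences are described below and not tested. All 10 passed the low-count filter, as did 13397 genes in all, but LOC306079, Ndufa10l1 and LOC100360940 had at most 13.55 counts in any WKY library and are high only in SHR. How alike the transcripts of gene and copy are was not analysed here.

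RNA was sequenced from primary cultures of articular chondrocytes, the cells that make joint cartilage, grown out of femorotibial (knee) cartilage of spontaneously hypertensive rats (SHR) or of the normotensive Wistar Kyoto strain (WKY). The 4 groups were WKY at 5 days, WKY at 3 months, SHR at 5 days and SHR at 3 months of age, each with 3 libraries. All cultures were grown in DMEM/F12 medium with fetal bovine serum and antibiotics after release of the cells with collagenase D. Per the labels, replicates 1 and 2 of each group belong to batch 1 and replicate 3 to batch 2. The labels give no sex and do not say whether replicates came from separate animals or cultures, so the p-values measure only the spread between these libraries.

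Depth was even, at 17839101 to 20358123 counts per library. Markers of the labelled cell type varied widely: Col2a1, the main collagen of cartilage, ran from 0.0521 to 24551 CPM (counts scaled to a common library size by the TMM method), and Col9a1 had no counts in 2 libraries. Acan, Matn3 and Snorc fell to 0.0505, 0.113 and 0.101 CPM. The lowest values of Col11a1, Comp, Hapln1 and Sox9 were 129, 6.19, 4.09 and 2.14 CPM. The sum of all 9 chondrocyte markers was 411 to 8859 CPM in WKY and 2002 to 33267 CPM in SHR at 5 days. At 3 months it was 167 to 1221 and 482 to 2852 CPM. Col1a1, a collagen of bone and fibrous tissue, was at 7879 CPM or more in every library. Of 4 endothelial markers, Cdh5, Kdr, Pecam1 and Tek had no counts in 10, 9, 5 and 1 libraries. Tek reached 4.49 CPM, in WKY 5-day replicate 2, and the summed level of the 4 was at most 4.75 CPM. Of 4 macrophage and leukocyte markers, Ptprc had no counts in 7 libraries, whereas Cd68 and Csf1r had counts in all 12, Lyz2 reached 39.8 CPM, and the sum ran from 2.06 to 52.5 CPM in WKY and 1.10 to 4.60 CPM in SHR at 5 days, and from 3.89 to 10.5 and 0.935 to 20.8 CPM at 3 months. The sum of 4 muscle markers (Acta1 at up to 72.1 CPM) did not overlap between strains at 5 days, at 6.86 to 32.5 CPM in WKY and 36.3 to 64.1 CPM in SHR, and was 12.2 to 67.3 and 26.5 to 75.4 CPM at 3 months. The sum of Prg4, Cd55 and Tnmd, not assigned here to 1 cell type, likewise did not overlap between strains at 5 days. It was at 109 to 222 CPM in WKY and 8.17 to 22.1 CPM in SHR. At 3 months the strains overlapped, at 76.1 to 308 and 34.8 to 331 CPM. The part of other cell types in the strain differences was not tested. SHR 5-day replicates 1 and 2 lay closer to each other than any other replicates of a group (SD of log2 differences 0.372, against 0.525 to 1.19). In bulk RNA of this kind, fewer cells of a type and less RNA per cell cannot be told apart.

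Gene copies arise when a stretch of DNA is duplicated or when a messenger RNA is copied back into the genome. Copies of the second kind usually lack the introns and the promoter of the parent gene, and genes of ribosomal proteins are known for having many. A short read that fits a gene and its copy equally well cannot be placed by its sequence alone. RSEM, the program named in the submitters' processing notes, divides such reads among the places they fit, in proportion to its estimate of each one's abundance. The genome sequences of SHR and WKY were not analysed here.

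In the RefSeq gene list of the later assembly GRCr8, LOC100362027 is named Rpl30l2, LOC306079 is named Rpl14l1 and LOC100360940 is named Diablol1. LOC306079 is listed there as a transcribed pseudogene and the other 9 genes as protein coding. By symbol that list holds 15 copies of Rpl30, of which 12 are named as pseudogenes, and 5 copies each of Hmgb2 and Rpl14, with 3 named pseudogenes each. It holds 1 copy each of Ndufa10 and Diablo. Of these copies the count table carries only 1 for each gene, except for Hmgb2, of which it carries Hmgb2l1 and Hmgb2-ps6 (as RGD1559962). Reads from copies outside the table were not analysed here.

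The DNA before the start of a gene and of its copy can be compared letter by letter. RefSeq windows (GRCr8) were found for 7 of the 10 genes, and those of Hmgb2 and Diablo and of their copies are printed as the pairs for which both windows were found. Each holds the 250 bases before the annotated start, from the reference genome and not from SHR or WKY. They lie at chr16:37723951-37724200 (minus strand, Hmgb2), chr11:60722609-60722858 (minus strand, Hmgb2l1), chr12:38716418-38716667 (plus strand, Diablo) and chr5:147029079-147029328 (plus strand, LOC100360940). GRCr8 is not the build of the counts, Rnor_6.0. Capitals mark 4 motifs on either strand: CCAAT, the NF-Y box; TTTGAA, the core of the cell-cycle homology region; TATAAA, the TATA box; and GGGCGG, the GC box.
Hmgb2: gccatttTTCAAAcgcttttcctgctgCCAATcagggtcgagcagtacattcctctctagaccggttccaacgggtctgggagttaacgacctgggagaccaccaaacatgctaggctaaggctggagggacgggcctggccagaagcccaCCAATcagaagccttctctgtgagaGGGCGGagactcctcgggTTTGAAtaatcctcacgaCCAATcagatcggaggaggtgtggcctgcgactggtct
Hmgb2l1: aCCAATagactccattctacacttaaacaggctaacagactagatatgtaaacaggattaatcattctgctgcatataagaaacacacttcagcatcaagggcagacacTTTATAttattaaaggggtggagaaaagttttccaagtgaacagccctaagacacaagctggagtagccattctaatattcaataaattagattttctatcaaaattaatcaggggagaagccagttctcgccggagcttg
Diablo: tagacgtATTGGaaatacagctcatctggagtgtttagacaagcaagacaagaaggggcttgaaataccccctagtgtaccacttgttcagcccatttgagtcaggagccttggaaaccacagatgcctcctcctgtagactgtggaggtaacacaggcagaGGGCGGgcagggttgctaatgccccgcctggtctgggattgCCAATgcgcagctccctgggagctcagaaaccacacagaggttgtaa
LOC100360940: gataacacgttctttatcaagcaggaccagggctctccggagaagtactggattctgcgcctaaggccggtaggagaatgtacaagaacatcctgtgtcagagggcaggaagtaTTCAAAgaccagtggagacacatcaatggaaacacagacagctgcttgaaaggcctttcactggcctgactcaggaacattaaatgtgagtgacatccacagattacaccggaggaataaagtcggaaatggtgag

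The Hmgb2 window held CCAAT 3 times, TTTGAA 2 times and GGGCGG 1 time. That of Hmgb2l1 held CCAAT 1 time and TATAAA 1 time, and neither of the other motifs. The Diablo window held CCAAT 2 times and GGGCGG 1 time, and that of LOC100360940 held TTTGAA 1 time and none of the other motifs. Over all 33469 RefSeq windows of this length, 34.0% held CCAAT, 16.2% TTTGAA, 12.9% TATAAA and 30.5% GGGCGG. The best local alignment of the Hmgb2 and Hmgb2l1 windows had 12 identical bases in 14 columns, and that of the Diablo and LOC100360940 windows 12 in 13 columns. These short stretches are the best-scoring likeness the alignment found within either pair, and a motif match is a description of letters, not of a site in use.

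RPL30 and RPL14 are proteins of the large ribosomal subunit, made in all growing cells. Nearly all counts of the Rpl30 pair fell on the copy in WKY and on the gene in SHR. Rpl30 (gene 64640) was at 1.71, 0.260 and 1.22 CPM in replicates 1, 2 and 3 of WKY at 5 days and at 0.771, 1.30 and 0.829 CPM at 3 months. In SHR it was at 236, 236 and 166 CPM at 5 days and at 202, 209 and 124 CPM at 3 months. All 6 SHR libraries were far above all 6 WKY libraries. The pooled level of a gene is its counts over the 3 libraries of a group, divided by their total scaled library size. For Rpl30 it was 201-fold higher in SHR at 5 days and 183-fold higher at 3 months.

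LOC100362027 (gene 100362027) ran the other way. It was at 279.9, 287 and 145 CPM in WKY at 5 days and at 244, 232 and 124 CPM at 3 months. In SHR it was at 0.207, 1.57 and 1.84 CPM at 5 days and at 0.921, 1.93 and 1.39 CPM at 3 months. The strains did not overlap, and the pooled level was 204-fold higher in WKY at 5 days and 145-fold higher at 3 months. The copy held 99.2% to 99.9% of the pair's counts in the 6 WKY libraries and 0.0877% to 1.10% in the 6 SHR libraries (95% Wilson intervals from 98.7% upward and up to 1.64%, for counting error only). Counts are not divided by gene length here, so a share of counts is not a share of molecules.

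The sum of Rpl30 and its copy showed no such gap. It was at 282, 287 and 146 CPM in WKY and 236, 237 and 168 CPM in SHR at 5 days, and at 245, 234 and 125 CPM in WKY and 203, 211 and 126 CPM in SHR at 3 months. The strains overlapped at both ages, and replicate 3 was lowest in all 4 groups. The fitted log2 fold change of SHR over WKY was 7.62 (SE 0.51) for Rpl30, -7.54 (SE 0.65) for the copy and -0.10 (SE 0.12) for the sum at 5 days, and 7.47 (SE 0.51), -7.09 (SE 0.64) and -0.14 (SE 0.12) at 3 months. On the CPM scale, at 5 days, SHR minus WKY was 212 for the gene and -236 for the copy.

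In the Rpl14 pair only the copy stood apart. Rpl14 (gene 65043) was at 551, 569.7 and 292 CPM in WKY and 482, 453 and 399.9 CPM in SHR at 5 days, and at 441, 439 and 249.8 CPM in WKY and 448, 399.9 and 261 CPM in SHR at 3 months. The strains overlapped at both ages. LOC306079 (gene 306079), the pseudogene, had 1, 2 and 3 counts in the WKY libraries at 5 days and 2, 0 and 5.01 at 3 months, against 226, 262 and 159 counts in SHR at 5 days and 243, 189 and 180.2 at 3 months. Its pooled level was 111-fold higher in SHR at 5 days and 91.6-fold higher at 3 months.

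LOC306079 held at most 0.113% of the pair's counts in any WKY library and 2.32% to 3.72% in SHR libraries. The library with 0 counts (of 8694 for the pair) allows a share of up to 0.0345%. The log2 fold change was 6.70 (SE 0.64) for the copy, -0.01 (SE 0.16) for Rpl14 and 0.02 (SE 0.16) for the sum at 5 days, and 6.44 (SE 0.63), -0.02 (SE 0.16) and 0.03 (SE 0.16) at 3 months. Without WKY 3-month replicate 3, which held 5.01 of the copy's 7.01 counts in its group, the copy's value at 3 months was 7.65. SHR minus WKY was -25.7 CPM for the mean of Rpl14 and 11.4 CPM for that of the copy at 5 days, and at 3 months SHR minus WKY was -7.19 CPM for Rpl14 and 11.2 CPM for the copy. These shifts of Rpl14 were small beside its SDs, 155 CPM in WKY and 41.7 CPM in SHR at 5 days.

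**Figure D1:**
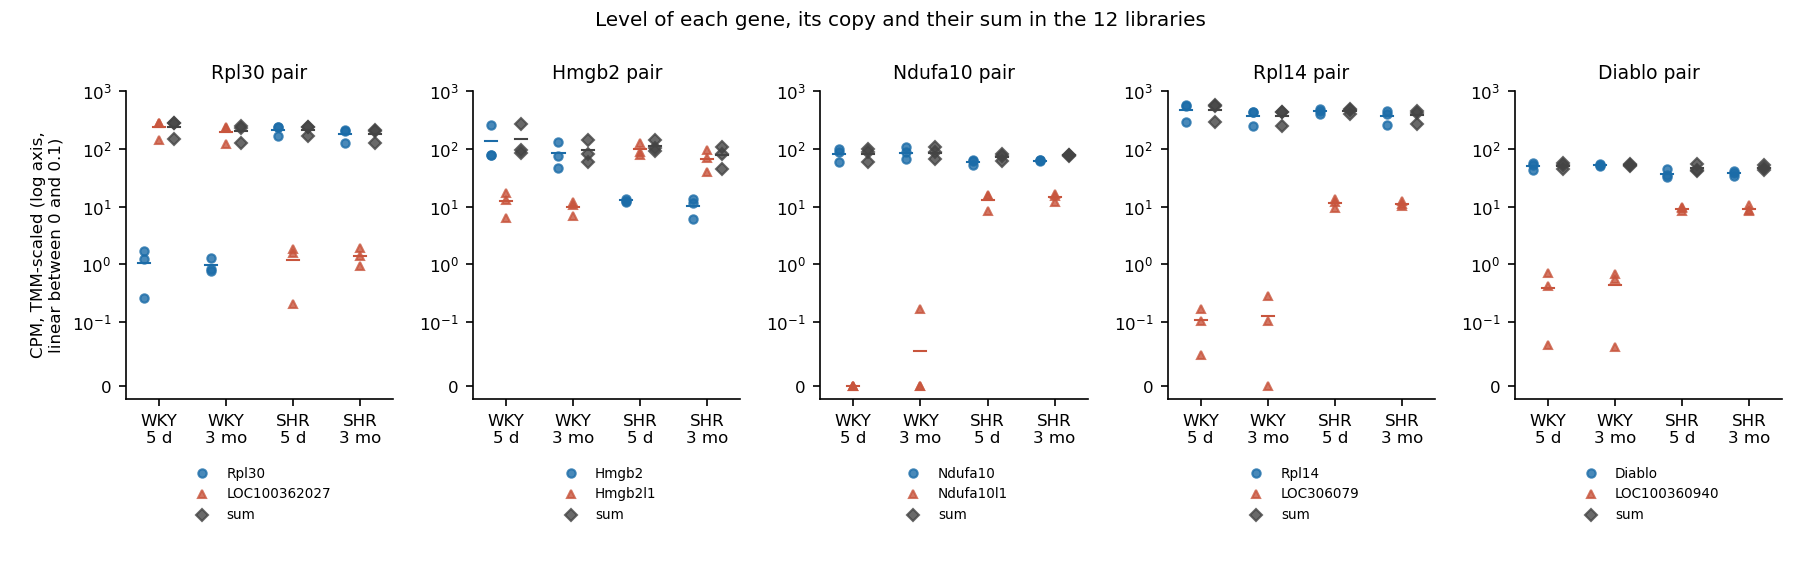
CPM (TMM-scaled, log axis with a linear stretch between 0 and 0.1) of each gene (circles), its copy (triangles) and their sum (diamonds), 1 point per library and short lines for the mean of the 3 libraries of a group. Gene and copy change places between WKY and SHR in the Rpl30 and Hmgb2 panels; in the other 3 panels the copy is near 0 in WKY and the gene is high in both strains; the sums overlap between strains in all 5.

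HMGB2 is a chromatin protein that binds and bends DNA. It is abundant in dividing cells and is known in joints for marking the surface layer of cartilage, where it declines with age. Hmgb2 (gene 29395) was at 259, 78.2 and 77.9 CPM in WKY at 5 days and at 75.8, 131 and 46.8 CPM at 3 months. In SHR it was at 13.6, 12.6 and 12.2 CPM at 5 days and at 13.3, 11.7 and 6.09 CPM at 3 months. The lowest WKY library was above the highest SHR library. The pooled level was 11.1-fold higher in WKY at 5 days and 8.27-fold higher at 3 months.

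Hmgb2l1 (gene 498072) was the reverse, at 13.1, 6.28 and 17.5 CPM in WKY at 5 days and 6.98, 10.9 and 12.3 CPM at 3 months. In SHR it was at 89.0, 79.8 and 128 CPM at 5 days and at 94.1, 68.6 and 39.0 CPM at 3 months. The strains did not overlap, and the pooled level was 8.04-fold higher in SHR at 5 days and 6.79-fold higher at 3 months. The copy held 4.81% to 20.8% of the pair's counts in WKY and 85.4% to 91.4% in SHR.

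Within WKY that share moved with the batch. It was 18.4% and 20.8% in the 5-day and 3-month libraries of batch 2 (95% Wilson intervals 16.6% to 20.3% and 18.4% to 23.4%), against 4.81% to 8.43% in the 4 libraries of batch 1. The log2 ratio of SHR to WKY for Hmgb2l1 at 3 months was 3.12 in batch 1 and 1.63 in batch 2 (mean CPM plus 0.5, and 1 library per strain in batch 2). The part of the batch in these values was not tested. The ordering of the strains was the same in both batches at both ages.

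The sum of Hmgb2 and Hmgb2l1 was at 273, 84.5 and 95.4 CPM in WKY and at 103, 92.5 and 141 CPM in SHR at 5 days, and at 82.8, 142 and 59.1 CPM in WKY and at 107, 80.3 and 45.1 CPM in SHR at 3 months. The strains overlapped at both ages. The log2 fold change at 5 days was -3.33 (SE 0.45) for Hmgb2, 3.02 (SE 0.43) for Hmgb2l1 and -0.31 (SE 0.47) for the sum, and at 3 months -3.02 (SE 0.44), 2.80 (SE 0.43) and -0.30 (SE 0.46). A single library stood out: in WKY 5-day replicate 1 the summed level of 26 cell-cycle genes was also the highest of its group, at 3908 CPM against 1147 and 2807 CPM. The sum's log2 fold change depended on single libraries in both directions. At 5 days it was 0.28 without that library, and leaving out WKY replicate 2 or 3 gave -0.61 or -0.48. Leaving out replicate 1, 2 or 3 of SHR gave -0.11, -0.05 or -0.93. At 3 months the values were -0.44, 0.03 and -0.45 when replicate 1, 2 or 3 of WKY was left out, and -0.53, -0.26 and -0.11 for those of SHR. The part of cell division in the level of the sum was not tested.

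NDUFA10 is an accessory subunit of mitochondrial complex I, the first enzyme of the respiratory chain. In WKY the counts fell almost wholly on Ndufa10. Ndufa10 (gene 678759) was at 101, 88.8 and 58.6 CPM in WKY and 60.9, 65.4 and 53.3 CPM in SHR at 5 days, and at 106, 86.9 and 65.7 CPM in WKY and 65.1, 63.0 and 60.6 CPM in SHR at 3 months. At 5 days the strains overlapped, and at 3 months the lowest WKY library was just above the highest SHR library.

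Ndufa10l1 (gene 316632) had no counts in any WKY library at 5 days, and 0, 0 and 2.92 counts at 3 months. In SHR it had 289.9, 309.9 and 141 counts at 5 days and 228, 262 and 290.0 at 3 months. At 5 days the copy was at least 255-fold higher in SHR, taking 3 counts over the group as the floor for WKY, and at 3 months the ratio was 280.2 (95% interval 92.9 to 1324, for counting error only). Its share of the pair's counts was 13.7% to 21.1% in SHR. In WKY at 5 days it was 0 of 4814 counts, which allows a share of up to 0.0623%. The fitted log2 values, 10.94 at 5 days and 7.91 at 3 months, depend on the prior count of the fit. Without WKY 3-month replicate 3, the only WKY library with a count, the value at 3 months was 11.19.

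SHR minus WKY was -23.0 CPM for the mean of Ndufa10 and 13.1 CPM for that of the copy at 5 days, and -23.3 and 14.5 CPM at 3 months. The sum was at 101, 88.8 and 58.6 CPM in WKY and 76.1, 81.2 and 61.7 CPM in SHR at 5 days, and at 106, 86.9 and 65.9 CPM in WKY and 77.0, 78.4 and 76.9 CPM in SHR at 3 months. The strains overlapped at both ages. The log2 fold change of Ndufa10 was -0.44 (SE 0.15) at 5 days and -0.43 (SE 0.15) at 3 months. That of the sum was -0.16 (SE 0.15) and -0.13 (SE 0.15).

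DIABLO, also called Smac, is a mitochondrial protein that is released into the cytosol during apoptosis and there binds inhibitors of caspases. Diablo (gene 288753) was at 56.8, 43.4 and 51.9 CPM in WKY and 32.4, 34.9 and 44.7 CPM in SHR at 5 days, and at 49.6, 52.1 and 54.8 CPM in WKY and 39.0, 34.3 and 41.7 CPM in SHR at 3 months. The strains overlapped by a single pair of libraries at 5 days and did not overlap at 3 months. LOC100360940 (gene 100360940) was at 0.415, 0.699 and 0.0641 CPM in WKY at 5 days and 0.561, 0.682 and 0.0611 CPM at 3 months. In SHR it was at 9.40, 8.36 and 9.67 CPM at 5 days and 8.66, 8.54 and 10.5 CPM at 3 months. The strains were far apart, with a pooled level 22.6-fold higher in SHR at 5 days and 20.6-fold higher at 3 months.

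LOC100360940 held 17.8% to 22.5% of the pair's counts in SHR and 0.111% to 1.58% in WKY. Within WKY the share was 0.123% and 0.111% in the libraries of batch 2 and 0.724% to 1.58% in those of batch 1, the reverse of the order seen for Hmgb2l1. SHR minus WKY was -13.4 CPM for the mean of Diablo and 8.75 CPM for that of the copy at 5 days, and -13.8 and 8.79 CPM at 3 months. The sum was at 57.3, 44.1 and 51.9 CPM in WKY and 41.8, 43.3 and 54.4 CPM in SHR at 5 days, and at 50.2, 52.7 and 54.8 CPM in WKY and 47.6, 42.9 and 52.2 CPM in SHR at 3 months. The strains overlapped at both ages. The log2 fold change was -0.45 (SE 0.13) for Diablo, 4.63 (SE 0.68) for the copy and -0.14 (SE 0.12) for the sum at 5 days, and -0.45 (SE 0.13), 4.53 (SE 0.68) and -0.15 (SE 0.12) at 3 months.

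**Figure D2:**
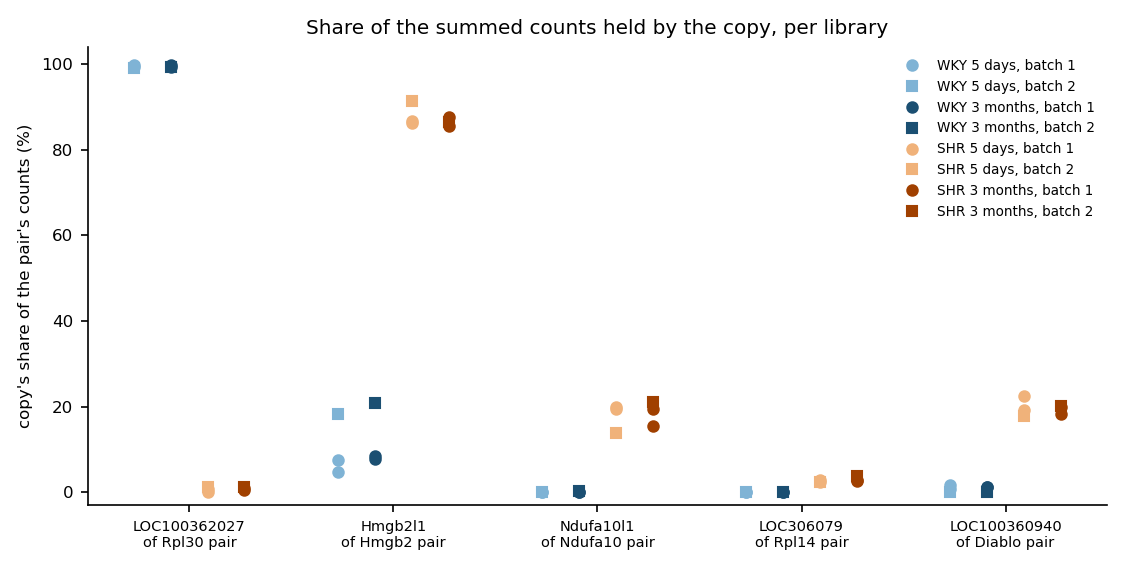
Share of each pair's summed counts held by the copy (percent, linear axis), 1 point per library; blue is WKY, orange SHR, pale 5 days, dark 3 months, circles batch 1 and squares batch 2. WKY and SHR libraries do not overlap in any of the 5 pairs, and the 2 WKY squares of Hmgb2l1, at 18.4% and 20.8%, lie above the 4 circles.

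The term mirror image thus held to different degrees. In the Rpl30 and Hmgb2 pairs, gene and copy exchanged places between the strains. In the Ndufa10 and Diablo pairs the gene remained the larger count in both strains. In means of 3 libraries it was lower in SHR by more CPM than the copy was higher. In batch 2, with 1 library per strain, that held only for the Diablo pair at 3 months. At 5 days the SD in WKY was 21.8 CPM for Ndufa10 and 6.78 CPM for Diablo. In the Rpl14 pair the copy's higher count had no counterpart that could be seen against the spread of the gene. Over both ages, the CPM ranges of the 6 SHR and the 6 WKY libraries did not overlap for 7 of the 10 genes, the exceptions being Ndufa10, Rpl14 and Diablo, and for 0 of the 5 sums. Of all 13397 genes tested, 0.888% had ranges that did not overlap, but the strain difference chose these genes and nothing is read from that share. Only 8 genes (0.0597%) had a lowest library of 1 strain over 10 times the highest of the other: Rpl30, LOC100362027, LOC306079, Ndufa10l1, LOC100360940, Uap1l2, Lilrb3l and LOC102553828.

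**Figure D3:**
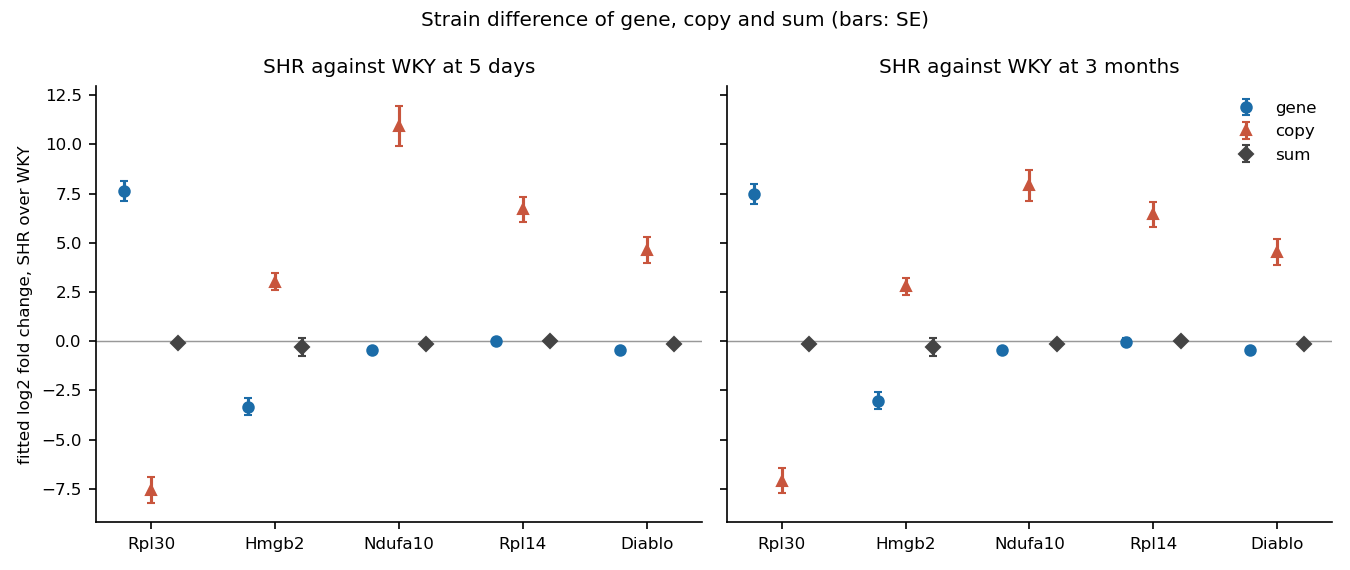
Fitted log2 fold change of SHR over WKY at 5 days (left) and 3 months (right) for each gene (circles), copy (triangles) and sum (diamonds), with bars of 1 SE. The sums lie between -0.31 and 0.03 while single genes reach from -7.54 to 10.94; the highest points, of Ndufa10l1 at 10.94 and 7.91, depend on the prior count because WKY had 0 counts at 5 days and 2.92 at 3 months.

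The fractions in the deposited counts were used to ask which genes shared divided reads. Where RSEM divides a read, the count of each gene that takes a part is no longer whole, and the parts add up to a whole number over the genes that share it. Of all counts, 8.87% were more than 0.015 from a whole number. A random fractional part falls within that tolerance for 3.0% of values. Rpl30 and LOC100362027 were each not whole in all 12 libraries, and their sum was whole in all 12. In SHR 5-day replicate 1, for example, 4500.05 counts of Rpl30 and 3.95 of the copy made 4504. In WKY 5-day replicate 1, 35.02 and 5728.98 made 5764.

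The same held for Diablo and LOC100360940, each not whole in 12 libraries and with a whole sum in 12. Ndufa10 and Ndufa10l1 were not whole in 5 libraries, and Rpl14 and LOC306079 were not whole in the 6 SHR libraries. Within the tolerance lay 1 further library of each pair, with 1082.99 and 290.01 counts of Ndufa10 and its copy in SHR 3-month replicate 3 and 4414.99 and 5.01 counts of Rpl14 and its copy in WKY 3-month replicate 3. The sums were whole in all 12 libraries for both of these pairs. When all other 16769 genes were searched, the named partner was the only gene that made the counts of these 8 genes whole in every library where they were not.

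The Hmgb2 pair was the exception, with a whole sum in only 2 of 12 libraries. Adding RGD1559962 (gene 498988), listed in RefSeq as Hmgb2-ps6, made the sum whole in 12 of 12, and no other gene of the table did so. This gene was found by the search and was thus chosen after the data were seen. It carried at most 14.37 counts in any library, against 806 to 5578.63 for the pair, so the pair's sum hardly depends on it. Over the 5 pairs, 50 of 60 sums were whole, or 60 with this gene included.

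**Figure D4:**
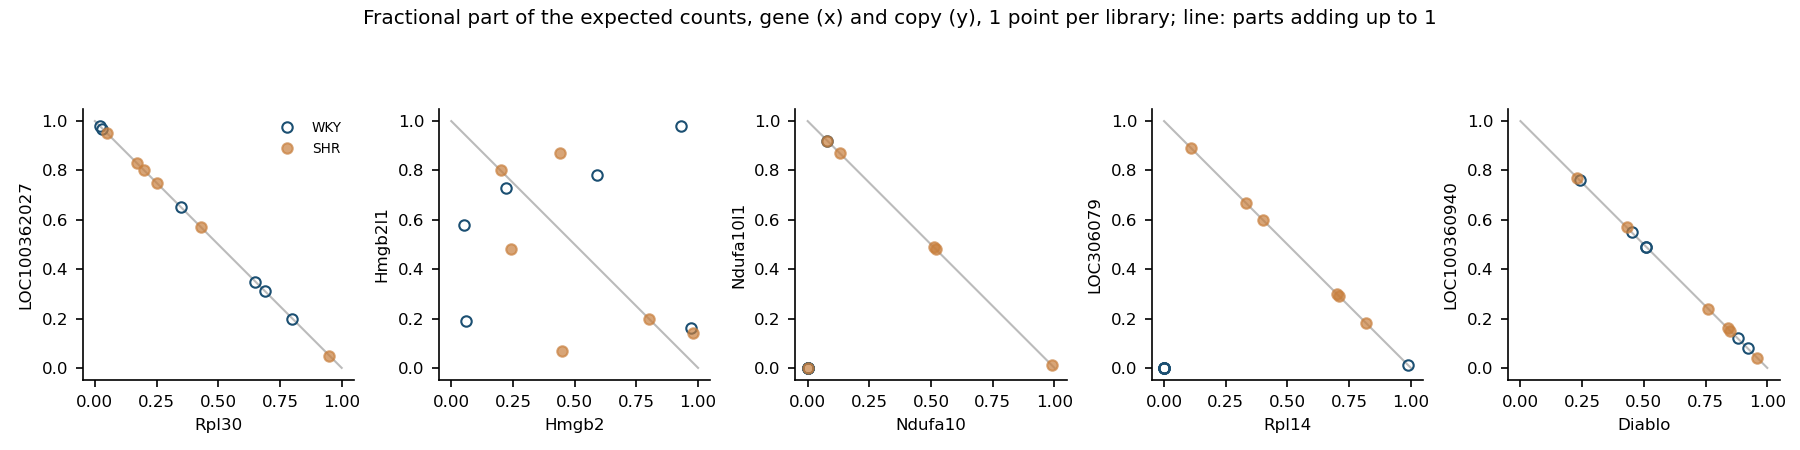
Fractional part of the expected count of each gene (x axis) and of its copy (y axis), 1 point per library (open WKY, filled SHR); the line marks parts that add up to 1, and points at the origin are libraries with whole counts. All points lie on the line or at the origin in the Rpl30, Ndufa10, Rpl14 and Diablo panels, whereas 10 of 12 libraries lie off the line in the Hmgb2 panel.

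How often such pairs differ between the strains was asked over the whole table, a search added after the data were seen. Among 1502 genes whose counts were not whole in at least 6 libraries, 463 pairs had a sum that was whole in all 12 libraries, including the Rpl30, Rpl14 and Diablo pairs. In 1 of these 463 pairs, that of Rpl30, which was chosen for this difference, both genes had CPM ranges that did not overlap between the strains and lay in opposite directions. When CPM was scaled by the total count in place of TMM there were 2, with the Diablo pair added. In 17 of the 463 pairs at least 1 gene did not overlap between strains, and in 7 the sum itself did not. Of the 17, 14 were outside the pairs chosen for their strain difference. Among all 13397 single genes tested, 0.888% did not overlap. A pair holds 2 genes, so these counts are not directly comparable with that share, and nothing is read from them.

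Age was not used to choose the genes, and its effect was tested. In WKY, 501 of 13397 genes (3.74%) were called between 3 months and 5 days by edgeR at a Benjamini-Hochberg adjusted p under 0.05 (1.71% higher and 2.03% lower at 3 months), and in SHR 276 (2.06%, with 0.873% higher and 1.19% lower). Over all genes, 2881 in WKY and 2333 in SHR had an unadjusted edgeR p under 0.05, and DESeq2 called 1495 and 1088. Of the 10 genes, 0 were called in either strain, 0 had an unadjusted p under 0.05, and DESeq2 called 0. This says little of the genes with few counts: in WKY, LOC306079, Ndufa10l1 and LOC100360940 had 0 to 13.55 counts per library and Rpl30 had 5.03 to 35.02, and in SHR LOC100362027 had 3.95 to 33.05, so that an age difference could hardly have been called there. The smallest adjusted p of the 10 by edgeR was 0.288, for Rpl14 in WKY. Of the 5 sums, 0 were called in either strain by edgeR or DESeq2, where the table with the pairs summed had 501 calls (3.74%) in WKY and 282 (2.11%) in SHR. In the test of whether the age difference itself differed between strains, 0 of 13397 genes were called by edgeR (0%; 569 at an unadjusted p under 0.05; 34 called by DESeq2), and 0 of the 10 genes and 0 of the 5 sums by either tool.

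The sum of Rpl30 and its copy had the smallest unadjusted p of the sums. Its log2 fold change of 3 months over 5 days was -0.28 (SE 0.12) in SHR (edgeR unadjusted p 0.0495, adjusted p 0.286) and -0.24 (SE 0.12) in WKY (adjusted p 0.286). The sum of Rpl14 and its copy was similar, at -0.31 (SE 0.16) in both strains (adjusted p 0.286 in WKY and 0.354 in SHR). The sum of Hmgb2 and Hmgb2l1 had the largest fitted age difference, -0.67 (SE 0.46) in WKY and -0.66 (SE 0.47) in SHR (adjusted p 0.424 and 0.504). Its spread was wide, with approximate 95% intervals (1.96 SE) of -1.57 to 0.23 and -1.58 to 0.26. Without WKY 5-day replicate 1 the value in WKY was -0.02, and without SHR 5-day replicate 3 that in SHR was -0.08. The sums of the Ndufa10 and Diablo pairs differed by 0.04 to 0.10 on the log2 scale, with approximate 95% intervals that reached from -0.23 to 0.40 at the widest.

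**Figure D5:**
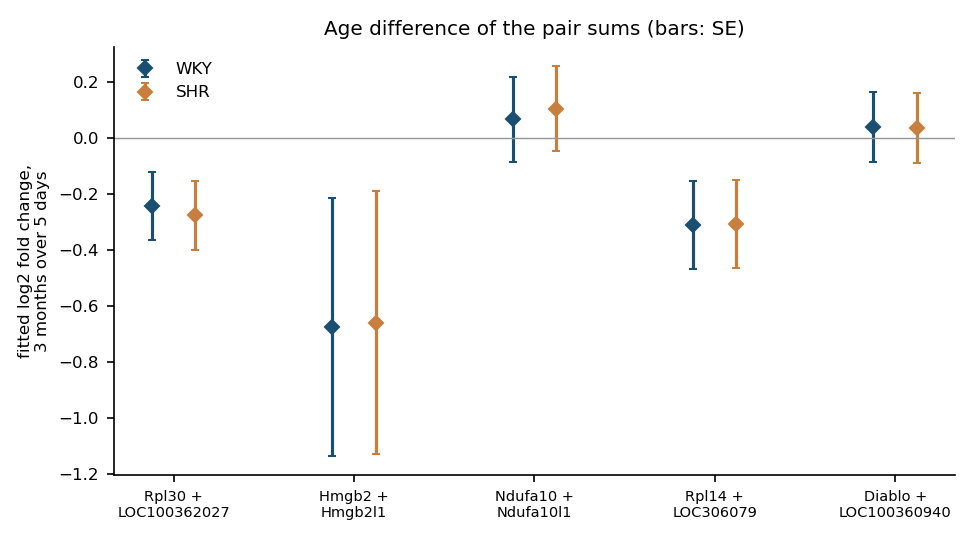
Fitted log2 fold change of 3 months over 5 days for the sum of each pair in WKY (blue) and SHR (orange), with bars of 1 SE. The Hmgb2 sum lies lowest, at -0.67 and -0.66, with the widest bars, and none of the 10 differences was called.

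Strain and age could be compared for gene and copy apart. The age difference of Hmgb2 was -0.71 (SE 0.40) in WKY, where it held most of the counts, and that of Hmgb2l1 was -0.50 (SE 0.40) in SHR, where the copy did (adjusted p 0.336 and 0.558). Ndufa10 differed by 0.07 (SE 0.15) in WKY and 0.08 (SE 0.15) in SHR with age, and Diablo by 0.04 (SE 0.13) in both strains. The share held by the copy was 17.7 ± 3.47% at 5 days and 18.7 ± 2.87% at 3 months for Ndufa10l1 in SHR (SD, n = 3). For Hmgb2l1 in SHR it was 88.2 ± 2.78% and 86.5 ± 1.08%.

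Levels of the sums moved with the batch. Replicate 3, the library of batch 2, was the lowest of its group in all 4 groups for the sums of the Rpl30, Rpl14 and Ndufa10 pairs, in 2 groups for the Hmgb2 pair and in none for the Diablo pair. The summed level of 43 other large-subunit proteins, 19213 to 33190 CPM over the libraries, was likewise lowest in replicate 3 in all 4 groups. Within batch 1 at 5 days the log2 ratio of SHR to WKY (mean CPM plus 0.5) was -0.26 for the Rpl30 sum, -0.87 for Hmgb2, -0.27 for Ndufa10, -0.22 for Rpl14 and -0.25 for Diablo. Within batch 2, with 1 library per strain, it was 0.21, 0.56, 0.07, 0.49 and 0.07. All 5 sums thus lay on opposite sides of 0 in the 2 batches at 5 days. At 3 months the ratios of the Rpl30, Ndufa10 and Rpl14 sums again differed in sign between batches (-0.21 and 0.01, -0.31 and 0.22, and -0.02 and 0.12), and those of Hmgb2 (-0.26 and -0.38) and Diablo (-0.18 and -0.07) did not. The 5 copies kept the same direction in both batches at both ages, since their strain ranges did not overlap. The part of the batch in the sums was not tested.

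Other genes of the same complexes and pathways were read from 5 lists. Of all genes, 46 (0.343%) were called between strains at 5 days and 48 (0.358%) at 3 months. An unadjusted edgeR p under 0.05 was common: 1292 of all 13397 genes had one between strains at 5 days and 1624 at 3 months. With age 2881 had one in WKY and 2333 in SHR. The counts of such p-values in the lists are to be read beside these. Of 43 large ribosomal subunit proteins tested, 0 were called in any comparison by edgeR. Between strains 1 had an unadjusted p under 0.05 at each age and DESeq2 called 0; with age 5 in WKY and 4 in SHR did, all lower at 3 months, and DESeq2 called 1 in each, Rpl9. Rpl38 had the smallest p between strains, whose edgeR fold change on the log2 scale was 0.49 (SE 0.19, adjusted p 0.402) at 5 days and 0.50 (SE 0.18, adjusted p 0.316) at 3 months. The list's median log2 fold change between strains was 0.01 at 5 days and 0.05 at 3 months, against -0.01 and 0.01 over all genes. With age the median was -0.24 in WKY and -0.18 in SHR, against -0.02 and 0.00 over all genes, and 42 and 43 of the 43 were below 0.

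Of 34 complex I subunits tested, 0 were called in any comparison by edgeR or DESeq2. Unadjusted p-values under 0.05 were found for 2 at 5 days and 1 at 3 months between strains, all higher in SHR, and for 2 with age in each strain, all higher at 3 months. Ndufv2, a subunit of the NADH-binding arm, had the smallest p between strains (log2 0.42, SE 0.12, edgeR adjusted p 0.238 at 5 days). Its mean level there was 95.4 ± 4.17 CPM in SHR, against 72.1 ± 14.8 CPM for the WKY libraries (SD, n = 3). The median of the list was 0.06 at 5 days and -0.02 at 3 months.

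Of 20 genes of mitochondrial apoptosis, in which DIABLO acts, 0 were called in any comparison by edgeR. Unadjusted p-values under 0.05 were found for 3 at 5 days and 2 at 3 months between strains and for 3 in WKY and 2 in SHR with age. Endog, a mitochondrial nuclease, had the smallest p between strains, with a 5-day level of 2.04 ± 0.413 CPM in SHR against 4.50 ± 0.241 CPM for WKY (edgeR log2 of -1.14 with an SE of 0.23, adjusted p 0.104), and at 3 months 2.00 ± 0.0717 against 4.62 ± 0.431 CPM (-1.21, SE 0.23, adjusted p 0.0695). DESeq2 called Endog at both ages and Bax, a pore-forming protein of the outer mitochondrial membrane, at 3 months. With age, Apaf1, which forms the platform that activates caspases, had the smallest p in both strains (log2 -0.63 in each, edgeR adjusted p 0.0662 in WKY and 0.0876 in SHR). DESeq2 called Apaf1 in both. The median over the list was 0.00 and 0.05 between strains and -0.05 and -0.03 with age.

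Of 26 cell-cycle genes, 0 were called in any comparison by edgeR. Between strains 1 had an unadjusted p under 0.05 at each age, Tyms, a thymidylate synthase, whose edgeR fold change on the log2 scale was -0.87 (SE 0.34, adjusted p 0.422) at 5 days and -1.11 (SE 0.34, adjusted p 0.215) at 3 months. DESeq2 called Tyms at 3 months. With age 2 had such a p in WKY, Mcm2 and Mcm6, both parts of the replicative helicase, and 0 in SHR, and DESeq2 called 0. The median was -0.37 at 5 days and -0.44 at 3 months between strains, and -0.27 in WKY and -0.50 in SHR with age.

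Of 11 other HMG and chromatin-binding proteins, 0 were called between strains by edgeR (1 at 5 days and 2 at 3 months had an unadjusted p under 0.05; DESeq2 called Hmgb3 and Hmgn1 at 3 months). With age, 1 was called in each strain by edgeR, both lower at 3 months. Of all genes, 2.03% in WKY and 1.19% in SHR were called lower at 3 months. An unadjusted edgeR p under 0.05 was found for 3 of the list in WKY and 4 in SHR. DESeq2 called Hmga2 and Hmga1 in WKY and Hmga2, Hmgn3 and Hmgn1 in SHR. Hmga2, a DNA-binding protein of growing and embryonic tissue, was lower at 3 months in WKY, at 3.73 ± 1.96 CPM against 13.8 ± 0.573 CPM at 5 days (SD, n = 3; log2 -1.95, SE 0.44, edgeR adjusted p 0.043). Hmgn1, which binds nucleosomes, was lower at 3 months in SHR, at 0.0775 ± 0.0729 CPM against 30.7 ± 10.7 CPM (log2 -8.62, SE 1.78, edgeR adjusted p 0.0435). Each call was lost in all 6 fits that left out 1 library, at adjusted p-values of 0.0524 to 0.166 for Hmga2 and 0.0765 to 0.160 for Hmgn1. Hmgn1 also shared divided reads with a copy, which is described among the observations. The median over the list was -0.06 and -0.19 between strains and -0.33 in WKY and -0.74 in SHR with age.

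The genes whose levels ran most like those of a member were taken by Pearson correlation of log2 CPM over the 12 libraries, which hold 2 strains, 2 ages and 2 batches, so that a shared strain difference alone gives a high value. For Rpl30 it was Mettl2b (r = 0.98), for LOC100362027 Uap1l2 (0.98), for Hmgb2 Polr3k (0.99) and for Hmgb2l1 RGD1564400 (0.96). For Rpl14, which hardly differed between strains, it was Rps3 (0.98), a protein of the small ribosomal subunit. For LOC306079 and Ndufa10l1 it was LOC100911951 (0.97 and 0.98), for LOC100360940 Gstt3 (0.97), for Ndufa10 Map2k3 (0.95) and for Diablo Nt5c (0.91). Mettl2b was among the leading 3 genes of Rpl30, Hmgb2l1, Ndufa10l1 and LOC100360940. With Spearman's correlation, 6 of the 30 leading genes were the same.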

How the data were processed

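The authors deposited expected counts, the read counts that RSEM estimates for each gene and that can hold fractions, for 16770 genes in 12 libraries; 9.17% of the values were not whole. Per the submitters' processing notes, the tools were RSEM 1.2.28, Bowtie2 2.4.4 and DESeq2 1.42.1, and the assembly was Rnor_6.0. The annotation, the strandedness and any filter are not given in the sources used here. Log2 tables of the series were not used. The members and gene lists were chosen with earlier results of these data known.

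Counts were summed within pairs before rounding to whole numbers. The model was edgeR's robust quasi-likelihood test (edgeR 4.0.16, R 4.3.3; TMM scaling, filterByExpr by group) over all 12 libraries, with 4 groups and the batch, once on the table as deposited and once with each pair replaced by its sum. P-values were adjusted over all 13397 (or 13392) genes by the Benjamini-Hochberg method, with a threshold of 0.05. Standard errors come from the test statistic, and 95% intervals of fold changes are 1.96 SE. These intervals are approximate and narrower than the edgeR test implies. For the Rpl30 sum with age in WKY, an interval of -0.483 to -0.0012 went with an unadjusted edgeR p of 0.0782. Genes were named if they were members or sums, if a list's gene was called or had one of its 3 smallest p-values, if they were among the 3 genes most like a member, or if both genes of a symbol pair were called in opposite directions. Other names were chosen after their values were seen. Some genes that this rule names are not reported here. CPM is TMM-scaled, with mean ± SD over 3 libraries. Depth was 17839101 to 20358123 counts per library. The floor of 3 counts and the intervals of shares cover counting error only. The edgeR script was tested on simulated data. Of the IDs, 15776 were found in RefSeq (GRCr8), used for names. Alternatives were DESeq2 1.42.0, other scaling, no low-count filter, no batch term, a replicate block, other sets of samples and each library left out.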

Additional observations from a re-analysis of the deposited data

How the results depend on the processing

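Each of the 238 alternative age values of the 5 sums and the 468 of the single genes kept its side of the threshold, the replicate block among them. The 142 alternative strain values of the sums moved by less than the spread between replicates, though 7 of 28 for the Rpl14 sum and 2 of 30 for the Hmgb2 sum changed sign, as did 4 of 28 age values of the Ndufa10 sum and 3 of 28 of the Diablo sum. Of 280 strain values of single genes 7 moved by more than that spread, all of 2 copies with few WKY counts: Ndufa10l1 was at 10.42 with DESeq2 and 11.42 without SHR 5-day replicate 3 at 5 days, and at 11.03 with batch 1 alone and 11.19 without WKY 3-month replicate 3 at 3 months, and LOC306079 was at 7.25 at 5 days and 7.68 at 3 months with batch 1 alone and at 7.65 without WKY 3-month replicate 3. Counts over all genes moved more. The numbers called between strains at 5 days and 3 months and with age in WKY and SHR were 46, 48, 501 and 276. They were 381, 607, 1495 and 1088 with DESeq2 (34 in the interaction), 11, 10, 128 and 18 without a batch term, 6, 26, 254 and 26 with SHR 5-day replicates 1 and 2 averaged, and 14, 23, 268 and 100 with only the groups compared. With batch 1 alone they were 22 at 5 days, 262 with age in WKY, 41 in SHR and 1 in the interaction. With 1 library left out they ran from 6 to 43, 11 to 84, 110 to 552 and 27 to 478, and from 0 to 1 in the interaction. Where batch 1 alone or a left-out library leaves few samples, the spread is pooled over groups. Same-numbered replicates were not shown to be paired: deviations of same-numbered libraries correlated at 0.0973 to 0.570 for replicates 1 and 2 and 0.456 to 0.666 for replicate 3, which is the batch. With the replicate block the counts were 16 and 28 between strains and 157 with age in SHR, and the calls of Hmga2 (adjusted p 0.0616) and Hmgn1 (0.0515) were lost. The causes were not tested.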

Other observations

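The genes in this section were chosen after their values were seen. Hmgn1, which binds nucleosomes, formed a pair of whole sums with LOC100911295. In SHR it was at 30.7 ± 10.7 CPM at 5 days and 0.0775 ± 0.0729 CPM at 3 months (SD, n = 3), and in WKY at 36.3 ± 19.0 and 8.43 ± 13.6 CPM. The sum with LOC100911295 was at 199.5 ± 67.3 and 174 ± 84.7 CPM in SHR and at 204 ± 101 and 204 ± 103 CPM in WKY, with SDs larger than the differences between ages.

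Other pairs with whole sums differed between strains in 1 gene while the sum overlapped. The log2 ratios of SHR to WKY in this section are of mean CPM plus 0.5, over both ages. The added 0.5 makes the ratios of genes and sums at a low level smaller in size, among them RGD1564400 and the Galr2 sum. LOC690155 was higher in SHR (log2 ratio 1.87) with a sum at 0.30 together with Pdcl, and LOC685025 was lower (-2.29) with a sum at 0.10 together with Ddx21, an RNA helicase. RGD1564400 was higher (2.45) with a sum at 0.00 together with Eif5, a translation initiation factor. Uap1l2 had no counts in any SHR library and was at 2.95 ± 1.50 CPM in WKY at 5 days.

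In other pairs the sum itself did not overlap between strains. At 5 days Septin5 had a mean of 114 ± 35.9 CPM in SHR against 26.9 ± 12.1 CPM for WKY. Over both ages its sum with Gp1bb had a log2 ratio of 2.23. RT1-N2 and RT1-N3, genes of the rat major histocompatibility complex, had 5-day means of 0.422 ± 0.217 and 11.8 ± 0.539 CPM in SHR against 6.02 ± 1.88 and 22.8 ± 8.25 CPM for WKY. The log2 ratio of their sum over both ages was -1.31. Galr2, a galanin receptor, and its partner LOC103690156 had a sum lower in SHR (-1.64). These differences are descriptions, with no test.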
